A study of Mus musculus with 6 samples.

Results

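The genes described here are 46 mouse genes for guidance cues and their receptors, chosen by name with earlier results of these data known. All were found among the 33460 Ensembl genes measured in brain mural cells and in brain microvascular fragments. They comprise 23 ligand genes (8 ephrins, 11 semaphorins, 2 Slits and 2 netrins) and 23 receptor genes (10 Eph receptors, 8 plexins, 2 neuropilins, 2 Robo receptors and *Unc5b*). All 46 symbols matched an annotated gene, and the list does not cover the whole of these families. The expression values are FPKM, sequenced fragments scaled by transcript length and by the mapped fragments of the library, so that levels can be compared between genes per length.

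RNA-seq covered 3 sorted mural cell samples (pericytes and vascular smooth muscle cells) and 3 samples of microvascular fragments, all of brain and all taken on postnatal day 6. All 6 samples came from NG2-DsRed/Pdgfrb-eGFP reporter mice, of the line Tg(Pdgfrb-eGFP)JN169Gsat/Mmucd for the green reporter, so that the fragments carry both reporters too. Mural cells were sorted from dissociated brain as cells positive for both colours, and fragments were pulled down with beads against CD31, an endothelial surface protein. The methods describe 3 mice, each brain split along the midline with a side for each preparation, but the labels do not say which samples share a mouse. The fragments hold endothelial cells with their attached mural cells, so each comparison sets mural cells against a mixture that includes them. In such bulk samples, fewer cells of a type and less RNA per cell cannot be told apart.

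All 12 mural cell markers rose in the sorted cells, with a summed level of 3950 to 5025 FPKM against 380 to 578 FPKM in the fragments. The sorted samples also held RNA of all 12 endothelial markers, of which 6 fell at an adjusted p under 0.05, 2 of them past the 2-fold limit, and none rose. Their summed level was 1631 to 2110 FPKM in mural cells and 2162 to 2518 FPKM in fragments. All 8 microglial markers fell, from 1668 to 1961 FPKM in the fragments to 103 to 176 FPKM, with *Aif1* and *Tyrobp* at 0 in mural sample 2. Of the fibroblast markers, 5 of 5 tested rose, from a sum over 6 genes of 52.7 to 60.6 FPKM in the fragments to 484 to 667 FPKM. None of the 8 astrocyte markers was called, but mural sample 3 stood apart at 750 FPKM against 257 and 212 FPKM in the other mural samples. For neurons, 10 markers summed to 47.4 to 69.3 FPKM in fragments and 27.9 to 45 FPKM in mural cells. The 7 markers of the oligodendrocyte lineage, whose precursors also express NG2, summed to 45.5 to 81.5 FPKM in fragments and 38.8 to 59.7 FPKM in mural cells, where *Mbp* fell (ratio 0.253, limma adjusted p = 0.0081) and *Pdgfra* rose inside the 2-fold limit (ratio 1.59, limma adjusted p = 0.048). The depth recovered from the values was 5431331 to 5963070 sequenced fragments on protein-coding genes in the fragment samples and 1036077 to 2365306 in the mural samples, so low levels are less precise in mural cells.

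Guidance cues are secreted or membrane-bound proteins first studied in growing axons. Ephrins bind Eph receptor tyrosine kinases on touching cells, semaphorins signal through plexins, with neuropilins as co-receptors for most class 3 members, Slits bind Robo receptors, and netrins bind Unc5 receptors, neogenin and DCC. The same cues act on blood vessels, where ephrin-B2 marks arterial and EphB4 venous endothelium and where Sema3E, neuropilins and plexin-D1 shape vessel growth.

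A gene was tested where at least 3 samples reached 1 FPKM, which left 43 of the 46 genes. It was called higher or lower where limma on log2(FPKM + 1) gave a Benjamini-Hochberg adjusted p under 0.05 over all 14801 genes tested and the ratio of mean FPKM, mural cells over fragments, was above 2 or under 0.5. By this rule 7 of 43 guidance genes rose in mural cells (16.3%, where 6.43% of all genes tested did) and 5 of 43 fell (11.6%, where 10.1% of all genes tested did). Since the genes were chosen with earlier results of these data known, these shares describe the list and cannot test it. *Sema3b*, among those that fell, reached 1 FPKM in the fragments only, so the filter fixed its direction. Over the 42 guidance genes that reached 1 FPKM in a sample of each group, 7 rose (16.7%, where 6.30% of 14136 such genes did) and 4 fell (9.52%, where 7.02% did). Under quantile normalization, which moved the median of all genes from -0.12 to 0.01 on the log2 scale, 7 rose and 2 fell, against 1212 and 1080 of all genes tested in place of 952 and 1493. The genes that rose were *Sema5a*, *Ntn4*, *Slit3*, *Ntn1*, *Plxnb1*, *Sema6d* and *Plxna1*, and those that fell were *Sema3g*, *Sema3b*, *Plxnc1*, *Plxna4* and *Epha4*. Among the 20 ligand genes tested, 5 rose and 2 fell, with a median log2 fold change of 0.08. Among the 23 receptor genes, 2 rose and 3 fell, with a median of -0.27. The median was -0.07 over the 43 guidance genes, close to that of all genes tested. At an adjusted p under 0.05 with any ratio, 9 stood higher (9.34% of all genes tested) and 9 lower (13.0% of all genes tested). In 11 guidance genes every mural sample lay above every fragment sample (16.5% of all genes tested), in 14 every mural sample lay below (24.5% of all genes tested), and in 18 the groups overlapped.

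**Figure D1:**
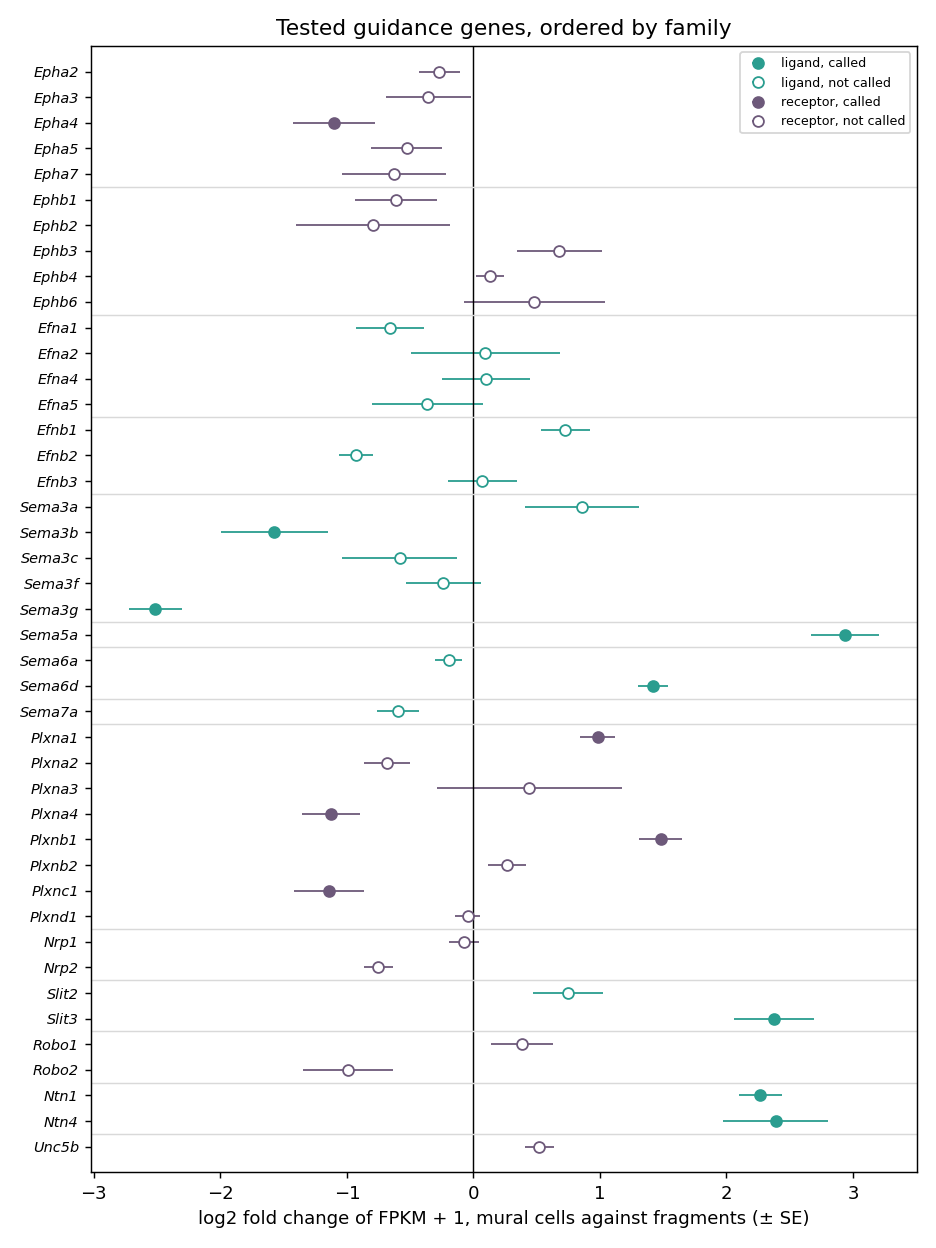
Log2 fold change of FPKM + 1 in mural cells against fragments for the 43 guidance genes tested, with the limma standard error as bars, ordered by family. Filled points are the 12 called genes, and the 3 called Slit and netrin ligands and *Sema5a* lie farthest to the right, between 2.27 and 2.94, while *Sema3g* lies farthest to the left at -2.51.

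The secreted cues of the Slit and netrin families stood higher in mural cells in each of their 4 listed genes, 3 of which passed the test (6.43% of all genes tested were called higher). *Ntn1* (ENSMUSG00000020902, NCBIM37 chr11:68022866-68214325, minus strand), which encodes netrin-1, was at 10.9, 11.6 and 8.09 FPKM in fragment samples 1, 2 and 3 and at 49.0, 56.2 and 52.0 FPKM in mural samples 1, 2 and 3. The groups did not overlap, and the mean rose 5.15-fold, from 10.2 ± 1.84 to 52.4 ± 3.59 FPKM (SD, n = 3), and the log2 fold change was 2.27 (SE 0.17, limma adjusted p = 1.9e-04). *Ntn4* (ENSMUSG00000020019, chr10:93103426-93209952, plus strand) encodes netrin-4, a basement membrane protein that binds laminin. It was at 4.26, 3.57 and 4.87 FPKM in fragments and at 16.1, 21.1 and 52.8 FPKM in mural cells. All mural samples lay above all fragment samples, but mural sample 3, which also held the most astrocyte marker RNA, was far above the other mural samples. The mean ratio was 7.08, and 4.38 without that sample, with log2 fold changes of 2.39 (SE 0.42, limma adjusted p = 0.0063) and 1.90 (limma adjusted p = 0.0033). The part of astrocyte RNA in the *Ntn4* level was not tested.

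*Slit3* (ENSMUSG00000056427, chr11:34934726-35522009, plus strand), a large secreted Robo ligand, was at 2.92, 4.09 and 3.51 FPKM in fragments and at 14.2, 33.1 and 23.2 FPKM in mural cells. Every mural sample was above every fragment sample, and the mean rose 6.70-fold from 3.51 ± 0.587 to 23.5 ± 9.45 FPKM (SD, n = 3), and the log2 fold change was 2.37 (SE 0.32, limma adjusted p = 0.0020). *Slit2* was at 15.0, 6.91 and 9.12 FPKM in fragments and at 18.1, 18.6 and 15.2 FPKM in mural cells. The groups did not overlap, though fragment sample 1 nearly reached mural sample 3, and the ratio of 1.68 did not pass the test (limma adjusted p = 0.098). Without fragment sample 1, which held its highest fragment value, *Slit2* had a log2 fold change of 1.03 (limma adjusted p = 0.037). In no other fit with a sample left out was *Slit2* called. *Slit2* was the higher Slit gene in every fragment sample, and *Slit3* was the higher in mural samples 2 and 3 but not in mural sample 1. The annotation places the microRNA genes *Mir218-1* and *Mir218-2* inside *Slit2* and *Slit3*. Other family members were not called: *Slit1* (ratio 1.02, limma adjusted p = 0.95), *Ntn3* (1.20, limma adjusted p = 0.79) and *Ntng2* (0.530, limma adjusted p = 0.20). *Ntn5* and *Ntng1* were too low to test. Summed over *Ntn1* and *Ntn4* alone, the netrins stood at 14.4 ± 1.25 FPKM in fragments and 82.4 ± 20.4 FPKM in mural cells (SD, n = 3). *Slit2* and *Slit3* together stood at 13.8 ± 3.61 and 40.8 ± 9.92 FPKM (SD, n = 3). Fibroblast markers also rose in these samples, as given above, with *Dpt* at or near 0, and their part in the levels of these secreted cues was not tested.

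Of the 3 listed receptors of these cues, none was called. *Unc5b*, a netrin receptor known from endothelial tip cells, was at 48.7, 53.4 and 47.9 FPKM in fragments and at 78.6, 72.2 and 66.1 FPKM in mural cells. Every mural sample was above the fragments, and the level rose with a ratio of 1.45, inside the 2-fold limit, with a log2 fold change of 0.52 (SE 0.12, limma adjusted p = 0.018, and up to 0.092 without a fragment sample). *Robo1* was at 4.71, 4.94 and 4.61 FPKM in fragments and at 5.66, 5.60 and 8.62 FPKM in mural cells, where mural sample 3 was the highest. Its ratio of 1.39 did not pass the test (limma adjusted p = 0.32). *Robo2* was at 3.66, 4.62 and 5.83 FPKM in fragments and 1.39, 1.18 and 3.39 FPKM in mural cells, again with mural sample 3 nearest to the other group. The ratio of 0.422 missed the test (limma adjusted p = 0.088), and without mural sample 3 the log2 fold change was -1.31 (limma adjusted p = 0.024). *Robo2* was not called with any other sample left out.

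**Figure D2:**
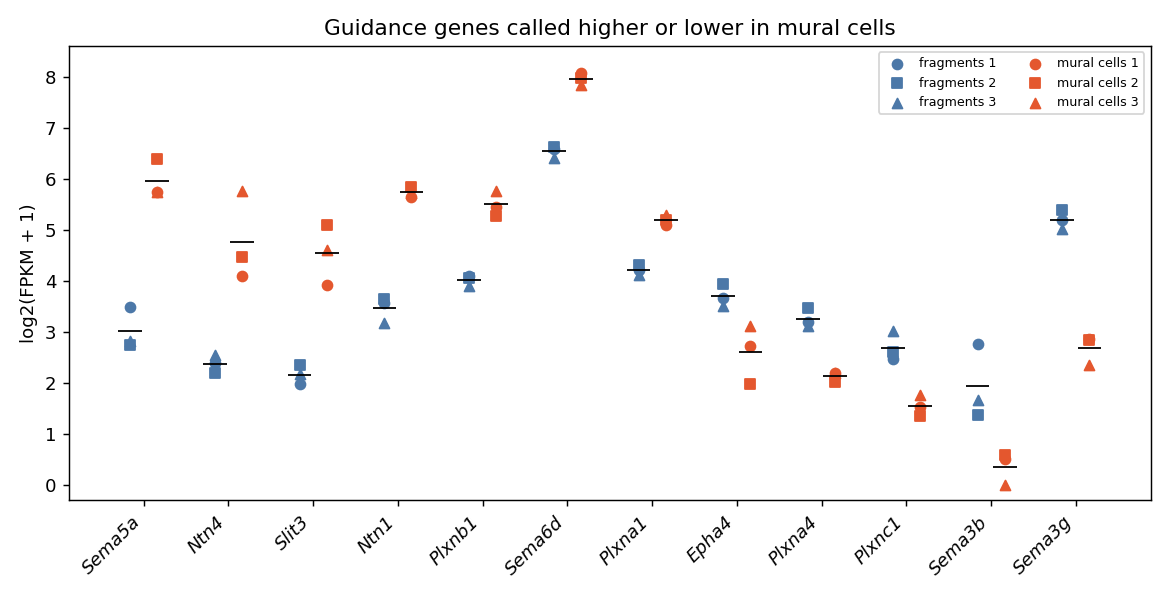
Level of the 12 called guidance genes as log2(FPKM + 1), in each of the 3 fragment samples and 3 mural samples, with a line at each group's mean. No called gene has overlapping groups, and the spread among mural samples is wide for *Ntn4* (16.1 to 52.8 FPKM) and narrow for *Ntn1* (49.0 to 56.2 FPKM).

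Of the 9 semaphorin genes tested, 2 rose and 2 fell past the 2-fold limit, from different classes (22.2% each, where 6.43% and 10.1% of all genes tested did). *Sema5a* (ENSMUSG00000022231, chr15:32174568-32626096, plus strand), a membrane-bound class 5 semaphorin with thrombospondin repeats, was at 10.2, 5.74 and 6.10 FPKM in fragments and at 52.5, 83.1 and 52.4 FPKM in mural cells. The lowest mural sample was far above the highest fragment sample. It had the largest ratio of the 43 genes tested, 8.53, from 7.35 ± 2.48 to 62.7 ± 17.7 FPKM (SD, n = 3), and the log2 fold change was 2.94 (SE 0.27, limma adjusted p = 4.2e-04). *Sema6d* (ENSMUSG00000027200, chr2:123915705-124493506, plus strand), a transmembrane ligand of plexin-A1, was at 95.2, 97.1 and 83.7 FPKM in fragments and at 269, 249 and 226 FPKM in mural cells. It was the highest of the 46 genes by mean in mural cells, at 248 ± 21.3 FPKM against 92.0 ± 7.25 FPKM in fragments (SD, n = 3), a 2.70-fold rise with a log2 fold change of 1.42 (SE 0.12, limma adjusted p = 2.7e-04). Its class 6 relative *Sema6a* was above *Sema6d* in each fragment sample and did not pass the test, at 124, 130 and 112 FPKM against 110, 103 and 107 FPKM (ratio 0.871, limma adjusted p = 0.23).

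The class 3 semaphorins, the secreted class that binds neuropilins, held both listed semaphorins called lower. *Sema3g* (ENSMUSG00000021904, chr14:32031046-32043536, plus strand), known from arterial endothelium, was at 35.5, 40.7 and 31.4 FPKM in fragments and at 6.23, 6.19 and 4.10 FPKM in mural cells. No mural sample came near the fragments, and the mean fell from 35.9 ± 4.64 to 5.51 ± 1.22 FPKM (SD, n = 3), a ratio of 0.154 with a log2 fold change of -2.51 (SE 0.21, limma adjusted p = 2.9e-04). The gene has a single annotated transcript, and its mural values correspond to about 47.9, 20 and 14 sequenced fragments, against 704.8, 747 and 634.6 in the fragment samples. *Sema3b* (ENSMUSG00000057969, chr9:107500005-107511560, minus strand) was at 5.76, 1.60 and 2.19 FPKM in fragments and at 0.421, 0.502 and 0 FPKM in mural cells. On the longest of its 7 annotated transcripts, 1 sequenced fragment is worth about 0.175, 0.415 and 0.393 FPKM in these mural samples, so the mural values rest on very few fragments. The gene passed the filter on low values through the fragments only and therefore had to differ, and its ratio of 0.0966 became 0.162 without fragment sample 1 and 0.145 without mural sample 3 (log2 fold change -1.57, SE 0.42, limma adjusted p = 0.036). The class as a whole summed to 54.1 ± 8.95 FPKM in fragments and 19.7 ± 4.75 FPKM in mural cells (SD, n = 3), most of it *Sema3g* in the fragments. The endothelial markers were at a median of 72.8% of their fragment level in mural cells, and their part in the *Sema3g* level was not tested. *Sema3a*, *Sema3c* and *Sema3f* did not pass the test, with mean levels from 1.72 to 8.99 FPKM over both groups, and *Sema3d* and *Sema3e*, at means from 0.170 to 1.01 FPKM, were too low to test.

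*Sema7a*, a membrane-anchored semaphorin that signals through integrins and plexin-C1, was at 73.1, 80.7 and 64.2 FPKM in fragments and at 55.0, 50.8 and 38.5 FPKM in mural cells. The groups did not overlap and the level fell with a ratio of 0.662, inside the 2-fold limit (log2 fold change -0.60, SE 0.17, limma adjusted p = 0.040, up to 0.153 without a sample, where 5 of 6 fits missed 0.05).

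The sequences just before the start sites of the ligand genes with the largest ratios are shown with that of *Sema3g*, the ligand that fell with the most sequenced fragments behind it. Each is the 250 bases upstream of a RefSeq start site in GRCm38.p6, read 5′ to 3′ on the strand of the gene, and capitals mark the GC box GGGCGG or its reverse complement CCGCCC. GRCm38.p6 is not the build of the expression files, and of the 46 genes 39 had an entry among the promoters, 8 of them among the 12 called genes.
Sema5a, chr15:32244563-32244812, plus strand: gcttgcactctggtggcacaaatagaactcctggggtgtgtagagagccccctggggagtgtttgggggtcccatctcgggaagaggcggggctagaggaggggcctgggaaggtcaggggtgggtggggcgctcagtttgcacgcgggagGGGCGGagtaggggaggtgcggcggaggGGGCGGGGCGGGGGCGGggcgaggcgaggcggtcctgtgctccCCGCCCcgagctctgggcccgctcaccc
Ntn4, chr10:93640799-93641048, plus strand: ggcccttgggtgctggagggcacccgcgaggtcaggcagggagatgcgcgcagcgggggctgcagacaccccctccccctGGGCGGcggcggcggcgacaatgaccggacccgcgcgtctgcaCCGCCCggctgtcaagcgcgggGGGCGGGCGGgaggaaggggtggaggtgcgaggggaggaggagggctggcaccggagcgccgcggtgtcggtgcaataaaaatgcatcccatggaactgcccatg
Slit3, chr11:35121206-35121455, plus strand: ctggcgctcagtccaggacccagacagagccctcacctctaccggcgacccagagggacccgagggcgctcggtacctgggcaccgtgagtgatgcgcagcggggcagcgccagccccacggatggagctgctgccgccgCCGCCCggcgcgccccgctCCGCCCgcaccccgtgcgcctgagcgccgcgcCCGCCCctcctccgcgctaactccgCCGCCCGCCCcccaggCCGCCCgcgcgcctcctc
Sema3g, chr14:31217623-31217872, plus strand: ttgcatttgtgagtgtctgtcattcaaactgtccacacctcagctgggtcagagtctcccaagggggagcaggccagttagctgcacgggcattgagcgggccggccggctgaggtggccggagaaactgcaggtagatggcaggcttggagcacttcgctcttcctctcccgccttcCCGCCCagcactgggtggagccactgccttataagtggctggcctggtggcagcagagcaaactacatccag
GC boxes, counted on both strands, numbered 5 upstream of *Sema5a*, 4 upstream of *Ntn4*, 6 upstream of *Slit3* and 1 upstream of *Sema3g*. Among 32851 promoter windows of 250 bases, 32.7% held at least 1 and 4.09% held 4 or more. The E-box CANNTG was found 2 times upstream of *Sema3g* and in none of the other windows shown, where 66.2% of all windows held it. These windows were rich in G and C, at 72.0%, 73.2%, 78.8% and 60.4% in the order shown, against a median of 52.4% over all windows. *Plxnb1*, which rose, and *Plxnc1*, which fell, each held 4 GC boxes, so a high count of the motif was found with both directions. *Sema6d*, a ligand gene that rose, differed from the risen ligand genes shown. Its windows held 1 and 0 GC boxes and 1 and 2 E-boxes, at 52.4% and 45.2% G and C. Of the receptor genes that fell, *Plxnc1* held 1 E-box and *Epha4* held 1 GC box and 0 E-boxes.

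Of the 8 genes for plexins, the semaphorin receptors, 2 rose and 2 fell (25.0% each, where 6.43% and 10.1% of all genes tested did). *Plxnb1* (ENSMUSG00000053646, chr9:108997950-109022425, plus strand), the receptor of Sema4D, was at 16.2, 15.6 and 13.9 FPKM in fragments and at 42.4, 37.8 and 53.5 FPKM in mural cells. All mural samples were well above the fragments, and the level rose 2.93-fold to 44.6 ± 8.09 FPKM (SD, n = 3), and the log2 fold change was 1.48 (SE 0.17, limma adjusted p = 9.8e-04). *Plxna1* (ENSMUSG00000030084, chr6:89266310-89312607, minus strand), a receptor of class 6 and, with neuropilins, of class 3 semaphorins, was at 17.4, 18.8 and 16.3 FPKM in fragments and at 33.1, 35.4 and 38.1 FPKM in mural cells. The groups were tight and far apart, but the ratio of 2.03 lay just past the limit, and it ranged from 1.96 to 2.11 when each sample was left out (log2 fold change 0.98, SE 0.14, limma adjusted p = 0.0023).

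*Plxna4* (ENSMUSG00000029765, chr6:32094565-32538192, minus strand), a receptor for class 3 semaphorins best known from neurons, was at 8.14, 10.04 and 7.66 FPKM in fragments and at 3.58, 3.04 and 3.57 FPKM in mural cells. No values overlapped, and the ratio was 0.394 (log2 fold change -1.12, SE 0.23, limma adjusted p = 0.012). With each fragment sample left out in turn the limma adjusted p was 0.057, 0.075 and 0.051. *Plxnc1* (ENSMUSG00000074785, chr10:94253617-94407212, minus strand), the plexin that binds Sema7A, was at 4.52, 5.05 and 7.11 FPKM in fragments and at 1.89, 1.57 and 2.41 FPKM in mural cells. The mural values correspond to about 23, 8 and 13 sequenced fragments, and the ratio was 0.352 (log2 fold change -1.14, SE 0.28, limma adjusted p = 0.024). Its call was also lost when any fragment sample was left out (limma adjusted p = 0.077, 0.096 and 0.147). Microglial markers fell over the same samples, as given above, and their part in the *Plxnc1* and *Plxna4* levels was not tested.

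*Plxna2* fell inside the 2-fold limit, from 21.8, 21.2 and 17.4 FPKM in fragments to 13.8, 10.4 and 12.4 FPKM in mural cells, a ratio of 0.606 (log2 fold change -0.68, SE 0.18, limma adjusted p = 0.034, up to 0.150 without a sample, where 5 of 6 fits missed 0.05). The most abundant plexins did not pass the test. *Plxnd1*, the Sema3E receptor of endothelium, was at 148, 137 and 134 FPKM in fragments and at 133, 133 and 138 FPKM in mural cells (ratio 0.968, limma adjusted p = 0.78), and it was the highest of the 46 genes in the fragments. *Plxnb2* was at 105, 109 and 138 FPKM in fragments and at 140, 158 and 124 FPKM in mural cells, with overlapping groups (ratio 1.20, limma adjusted p = 0.26). *Plxna3* was spread widely among the mural samples, at 8.61, 1.01 and 14.7 FPKM, and was not called.

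Of the neuropilins, *Nrp2* passed the test and *Nrp1* did not, and the difference between them was not tested. *Nrp1*, a co-receptor for semaphorins and VEGF, was at 72.7, 76.2 and 87.9 FPKM in fragments and at 79.3, 69.9 and 75.4 FPKM in mural cells, with overlapping groups (ratio 0.949, limma adjusted p = 0.71). *Nrp2*, the form linked to veins and lymphatic vessels, was at 63.4, 59.0 and 58.5 FPKM in fragments and at 37.7, 34.6 and 34.0 FPKM in mural cells. Every mural sample was lower, and the level fell with a ratio of 0.587, inside the 2-fold limit (log2 fold change -0.75, SE 0.11, limma adjusted p = 0.0032).

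Ephrins and Eph receptors held a single called gene among the 17 tested, where 6.43% of all genes tested rose and 10.1% fell. *Epha4* (ENSMUSG00000026235, chr1:77363760-77511663, minus strand), a receptor that binds both ephrin classes, was at 11.6, 14.2 and 10.4 FPKM in fragments and at 5.61, 2.92 and 7.66 FPKM in mural cells. The groups did not overlap, but the mural samples were spread widely, and the ratio of 0.446 passed narrowly (log2 fold change -1.10, SE 0.32, limma adjusted p = 0.049). The call was lost in 12 of 18 alternatives, among them without any 1 of the fragment samples (limma adjusted p = 0.137, 0.167 and 0.113). The most abundant receptor was *Ephb4*, the venous ephrin-B2 receptor, at 53.6, 55.9 and 53.8 FPKM in fragments and 63.4, 61.1 and 55.0 FPKM in mural cells, a ratio of 1.10 that did not pass the test (limma adjusted p = 0.44). *Epha2*, the highest EphA receptor, was at 35.4, 29.4 and 29.9 FPKM against 27.2, 29.4 and 21.9 FPKM (ratio 0.828, limma adjusted p = 0.28). The other 7 Eph receptors had mean levels from 1.17 to 8.21 FPKM over both groups, and none was called.

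*Efnb2*, the arterial ephrin, was at 63.4, 66.5 and 52.9 FPKM in fragments and at 28.8, 33.7 and 32.0 FPKM in mural cells. All mural samples were lower, and the level fell with a ratio of 0.517, just inside the 2-fold limit (log2 fold change -0.93, SE 0.14, limma adjusted p = 0.0030). *Efnb1* was at 9.38, 7.18 and 9.08 FPKM in fragments and at 15.7, 13.2 and 15.4 FPKM in mural cells, and every mural sample lay above the fragments. Its ratio was 1.73 (log2 fold change 0.73, SE 0.19, limma adjusted p = 0.033), and the limma adjusted p was above 0.05 in 5 of the 6 fits without a sample, up to 0.131, and 0.059 with the replicate block. *Efna1*, the highest ephrin-A, was at 50.8, 57.4 and 51.2 FPKM in fragments and at 38.0, 21.0 and 45.6 FPKM in mural cells, a ratio of 0.656 with a wide mural spread (limma adjusted p = 0.13). *Efna2*, *Efna4*, *Efna5* and *Efnb3* did not pass the test, with means from 1.66 to 4.71 FPKM, and *Efna3* was not tested, since it reached 1 FPKM only in mural sample 2, at 5.25 FPKM.

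**Figure D3:**
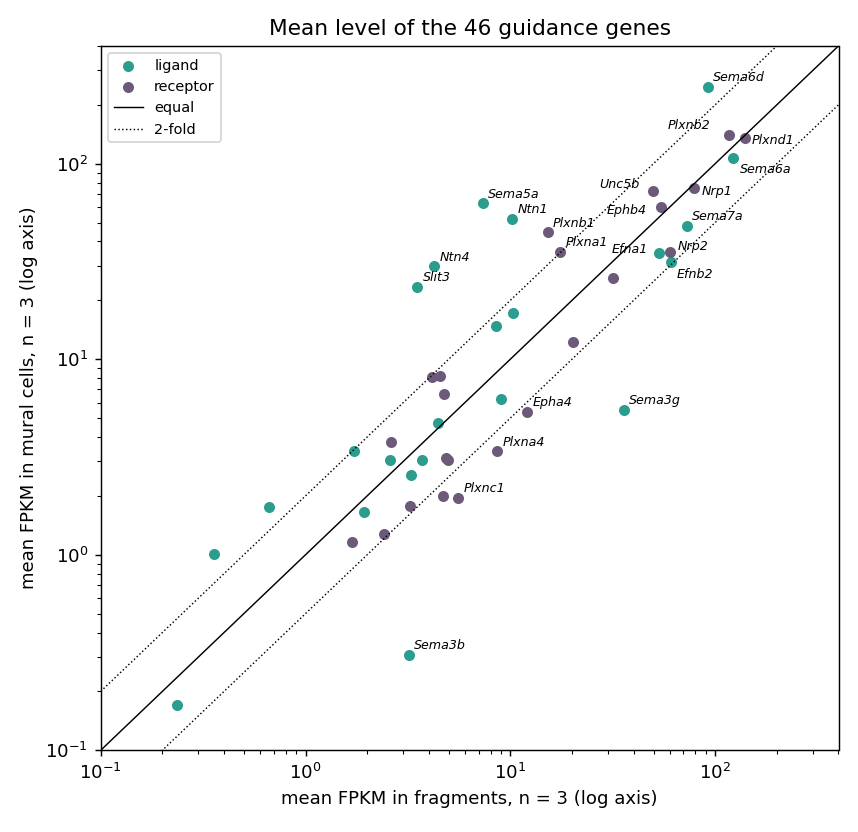
Mean FPKM of each of the 46 guidance genes in mural cells against fragments (n = 3 each, log axes), with the line of equal level and dotted lines at a 2-fold difference. The abundant genes *Plxnd1*, *Sema6a*, *Plxnb2* and *Nrp1* lie between the dotted lines, and *Sema6d* lies above the upper dotted line.

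Set side by side, the ligand genes summed to 530, 543 and 463 FPKM in fragments and to 697, 728 and 684 FPKM in mural cells, and the receptor genes to 643, 640 and 664 FPKM in fragments and to 698, 671 and 690 FPKM in mural cells. Every mural sum lay above every fragment sum for both, with means of 512 ± 42.7 and 703 ± 22.9 FPKM for ligands and of 649 ± 13.2 and 686 ± 13.7 FPKM for receptors (SD, n = 3). Abundant genes weigh most in these sums, and *Sema6d* alone had means of 92.0 and 248 FPKM. The median tested gene was at 96.9% of its fragment level among ligands and 82.8% among receptors. Of the 23 receptors tested, 4 had every mural sample above every fragment sample, 8 had every one below, and 11 overlapped. For the 20 ligands tested these numbers were 7, 6 and 7. Of all genes tested, 16.5% lay above and 24.5% below, and the difference between ligands and receptors was not tested. The 5 genes with the highest mean held 50.7% of the summed level in mural cells (*Sema6d*, *Plxnb2*, *Plxnd1*, *Sema6a* and *Nrp1*) and 47.4% in fragments, where the same 5 genes led with *Plxnd1* first. Over the listed genes of each family, the ephrins summed to 135 ± 7.52 FPKM in fragments and 94.8 ± 6.80 FPKM in mural cells, the plexins to 328 ± 9.48 and 381 ± 5.06 FPKM, and the class 6 semaphorins to 214 ± 16.2 and 354 ± 22.9 FPKM (SD, n = 3).

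**Figure D4:**
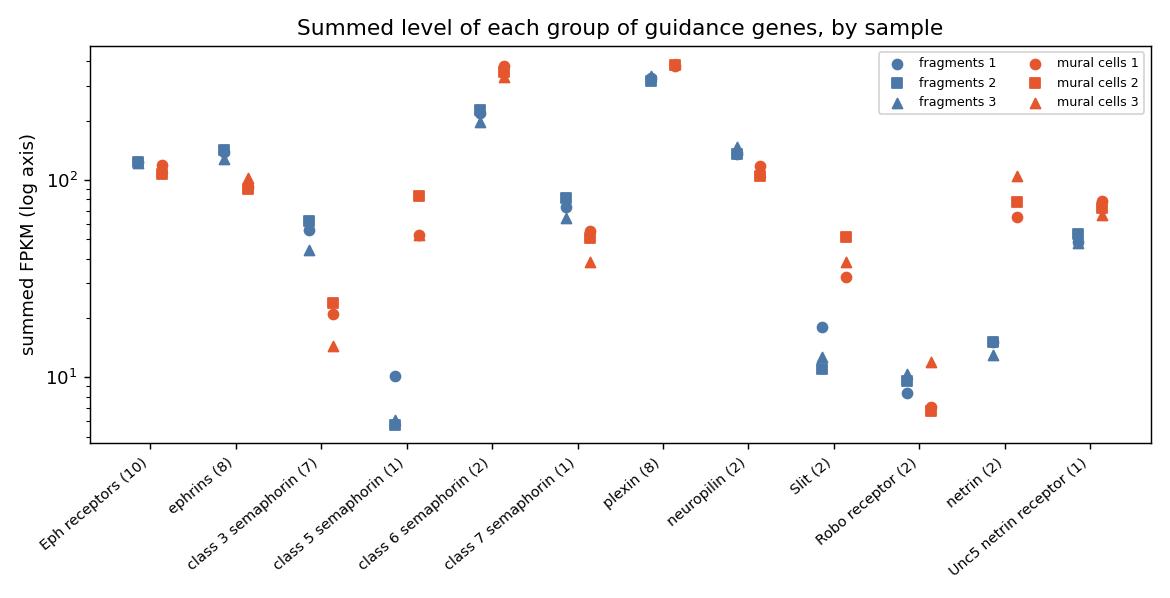
Summed FPKM (log axis) of the listed genes of each family in each of the 6 samples, with the number of genes in parentheses. The listed netrins (14.4 against 82.4 FPKM on average) and the single listed class 5 semaphorin lie farthest above the fragments, the class 3 semaphorins lie below them, and the Eph receptors lie close together.

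Another 30 guidance genes were listed, of which 29 matched a gene and 22 were tested. They are members of the same families left out of the 46, with *Rgma*, *Rgmb*, *Draxin*, *Dcc*, *Neo1* and *Dscam* from outside these families. Of the 22, 5 rose (22.7%) and 2 fell (9.09%), where 6.43% and 10.1% of all genes tested did. Those that rose most were *Sema5b* (ratio 6.37, log2 fold change 2.30), the closest relative of *Sema5a*, *Sema6c* (4.96, log2 fold change 2.09), *Rgma* (3.17, log2 fold change 1.59) and *Epha8* (6.08, log2 fold change 1.40). *Epha8* stayed under 1 FPKM in every fragment sample and passed the filter through the mural samples alone. The remaining gene that rose was *Neo1* (2.04), which encodes neogenin, the receptor of repulsive guidance molecule A, the product of *Rgma*, and of netrins, and it is named here after its value was seen. Those that fell were *Sema4d* (0.278, log2 fold change -1.74), the ligand of plexin-B1, and *Robo3* (0.113, log2 fold change -1.19), which reached 1 FPKM in the fragments alone. *Sema4d* was at 25.5, 31.0 and 35.4 FPKM in fragments and at 6.97, 7.97 and 10.6 FPKM in mural cells, the opposite direction to *Plxnb1*.

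Among 48 genes for proteins that act inside the cell below these receptors, all of them tested, 8 rose (16.7%) and 4 fell (8.33%). Of all genes tested, 6.43% rose and 10.1% fell. *Mical2*, of a family of actin-oxidising enzymes that act below plexins, rose 8.19-fold, from 5.44, 5.67 and 3.95 FPKM to 26.2, 48.3 and 48.8 FPKM (log2 fold change 2.76, SE 0.28). *Chn1*, which encodes the chimaerin that acts below EphA4, rose 5.56-fold (log2 fold change 2.36), *Ptpn13*, a phosphatase gene, 5.61-fold (2.22) and *Nck2*, an adaptor that binds ephrin-B tails, 3.95-fold (1.95). Those that fell were *Fes* (ratio 0.308), *Pak1* (0.217), *Rnd1* (0.226), a GTPase that binds plexins, and *Srgap2* (0.451), of a family of Robo-binding proteins. Of the genes at 1 FPKM in a sample of each group, which leaves out *Epha8* and *Robo3*, 4 of 20 other guidance genes rose (20.0%) and 1 fell (5%). Of the 48 mediators 8 rose (16.7%) and 4 fell (8.33%), where 6.30% and 7.02% of all such genes did. Both lists were also chosen with earlier results known, so their shares are descriptive.

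Of the 46 genes, 20 overlap another annotated gene. Among the 12 called genes these are *Ntn1*, *Ntn4*, *Slit3*, *Sema6d*, *Plxna1*, *Plxna4*, *Plxnb1* and *Plxnc1*, and all but *Plxnc1* overlap a gene on the opposite strand. Whether the strand was used in counting is not given in the sources used here, so reads of these genes and their overlapping partners may have been shared.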

How the data were processed

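RNA was prepared with a stranded low-input total RNA kit after depletion of ribosomal RNA, and all libraries shared a lane. Reads were aligned by the authors with TopHat2 (version 2.0.4) to NCBIM37, duplicated reads were dropped with Picard (1.92), and the deposited FPKM values per Ensembl gene were made with Cufflinks (2.2.1). The library scaling and the strand setting are not given in the sources used here. Identifiers were matched to NCBIM37 symbols, and a symbol shared by several genes was assigned to the longest model.

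Because FPKM are not counts, limma (3.58.1, trend) in R 4.3.3 was fitted to log2(FPKM + 1) with the 3 mural and 3 fragment samples and no covariates, for 14801 of 33460 genes with at least 1 FPKM in at least 3 samples, and fold changes on this scale understate those of low genes. Other steps used pandas 2.3.3 and NumPy 2.4.6 under Python 3.11.15. Genes named with all sample values are those with an adjusted p under 0.05 and the highest of each family in either group. In the lists of other genes, the called genes with the 4 largest absolute log2 fold changes per direction are named by their ratios. *Robo2*, *Plxna3*, *Efna3* and the sample values of *Sema4d* and *Mical2* were singled out after their values were seen. The guidance genes and all lists were chosen with earlier results of these data known. On simulated data with 200 of 14898 genes changed 4-fold, the fit recovered 61% of raised and 46% of lowered genes, with 27 false among 134 calls. The simulation gave every gene in both groups the same dispersion, not estimated from these samples, so these shares may not hold for the calls reported here. Of the low values, 97.9% to 98.6% per sample lay within 0.1 of a whole multiple of what a single sequenced fragment is worth, which gave the depth. The methods describe 3 mice and the labels do not tie samples to mice, so p-values measure the spread between these samples. Alternatives covered the pseudocount, filters, scaling, the thresholds, the replicate block and leaving out each sample.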

Additional observations from a re-analysis of the deposited data

How the results depend on the processing

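The 7 guidance genes that rose were 6 to 8 when a sample was left out and did not change by over 1.5 times under the 18 alternatives planned, and *Sema3g*, *Sema5a*, *Sema6d*, *Plxnb1*, *Slit3*, *Ntn1* and *Ntn4* were called in all 18. *Plxna1* lost its call without fragment sample 3, without mural sample 3 and with a limit of 1 on the log2 fold change. The 5 that fell were fewer in most alternatives: 1 at an adjusted p under 0.01, 3 with a filter at 5 FPKM, 2 with no filter, 3 with a pseudocount of 0.1, 2 with quantile normalization, and 1 to 5 when a sample was left out (1 without fragment sample 1, 1 without fragment sample 2, 2 without fragment sample 3 and 3 without mural sample 1). With no condition on the ratio they were 9. *Sema3b*, with an adjusted p of 0.058, 0.053 and 0.080 without mural samples 1, 2 and 3, lost its call in 7 of the 14 alternatives that tested it. *Plxnc1* lost its call in 6 of 17.

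Of the other guidance genes, 5 that rose became 3 to 5 when a sample was left out (3 without fragment sample 3, mural sample 2 or mural sample 3), and 2 that fell became 1 at an adjusted p under 0.01, 1 with quantile normalization, 1 with the replicate block, 1 among genes at 1 FPKM in a sample of each group (a choice made after seeing the data) and 1 to 4 when a sample was left out (4 without mural sample 3, 1 without mural sample 2 or any fragment sample). The 4 mediators that fell became 2 at an adjusted p under 0.01 and 2 to 5 when a sample was left out, with 2 without fragment sample 1 or 3. Directions reversed only in guidance genes that were not called. Under quantile normalization the log2 fold change became 0.39 for *Epha3*, 0.032 for *Efna5* and 0.038 for *Sema3f*. When a sample was left out it ranged from -0.45 to 0.69 for *Efna2* (-0.45 without fragment sample 2 and -0.19 without mural sample 2), from -0.20 to 0.38 for *Efna4* (reversed without mural sample 2), from -0.65 to 0.076 for *Efna5* (without mural sample 3), from -0.075 to 0.22 for *Efnb3* (-0.075 without fragment sample 1 and -0.070 without mural sample 2), from -0.17 to 1.31 for *Plxna3* (without mural sample 3) and from -0.13 to 0.0065 for *Nrp1* (without fragment sample 3). The cause was not tested. Over the 43 genes and 18 alternatives, 703 values kept direction and side of the threshold.

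Same-numbered samples deviated from their group means with correlations of 0.08, 0.02 and 0.05, and every sample correlated best with its own number. Such low values cannot settle whether equal numbers mark the same mouse. The labels do not say, so the main fit had no block and a fit with a block for equal numbers was an alternative. With the replicate block 7 guidance genes rose and 4 fell, as *Epha4* had an adjusted p of 0.087, and inside the 2-fold limit *Efnb1* and *Plxna2* had 0.059 and 0.066. The mural samples held at most 2365306 sequenced fragments on protein-coding genes, which limits low genes such as *Sema3b* and *Plxnc1*.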
